A study of Rattus norvegicus with 8 samples.

Results

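Laminin-332 chains, the integrins that bind this laminin or release TGF-beta from its latent form, and the hemidesmosome collagen Col17a1 were followed as 9 genes, chosen by name from the 30240 rows of the expression table, with earlier results of these data known. They were Lama3 and Lamb3 (the α3 and β3 chains of laminin-332), Itga3, Itga6, Itgb1 and Itgb4 (subunits of its receptors), Itgav and Itgb6 (subunits of integrin αvβ6) and Col17a1. All 9 were found in the table, and 8 of them were among the 6849 genes that reached 1 CPM (reads of a gene scaled to the library total) in at least 4 of the 8 libraries and were tested. Itgav reached that level in 3 libraries and is given by its values.

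Messenger RNA was read in SF2, a dental epithelial line taken from the cervical loop of rat mandibular incisors, the growing end of the tooth in which ameloblasts, the cells that make enamel, arise. Cells were AmeloD-overexpressing or Control; AmeloD, a product of the gene Ascl5, is a basic helix-loop-helix protein that regulates transcription in dental epithelium. Each genotype carried the plasmid pCMV6.ODAM or pCMV6 and the label TGF or N, and none of the labels spells out TGF or N, names the promoter that drives AmeloD, or says whether a line is 1 clone. The 8 combinations had 1 library each, so every genotype, plasmid or TGF label was carried by 4 libraries, and libraries equal in 2 of the 3 labels form a matched pair for the remaining one. Nothing says that the libraries came from separate cultures, so p-values measure only the spread between these libraries, which may be technical.

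Library totals were 10568146 to 13668736 reads in AmeloD and 14766931 to 17775226 reads in Control, and 15.6% to 17.5% of each total lay in the table. By counting error alone, a library with 0 reads of a gene may hold up to 3, equal to 0.169 CPM in the deepest and 0.284 CPM in the shallowest library. Ascl5 had 0 reads in all 8 libraries, and since 3'-end reads of an expression construct may lie outside the gene model, the AmeloD label could not be checked. Odam, the gene of odontogenic ameloblast-associated protein, had 31 reads over the pCMV6.ODAM libraries and 1 read over the pCMV6 libraries, and 27 of the 31 were from Control. Epithelial markers were present: the summed level of 5 of them (Krt5, Krt17, Epcam, Cdh1 and Tp63) was 734 to 842 CPM in AmeloD and 500.2 to 643 CPM in Control. The 7 fibroblast and mesenchyme markers summed to 17.4 to 26.4 CPM in AmeloD and 33.4 to 63.0 CPM in Control, nearly all of it Col3a1, with Col1a2, Pdgfrb, Dcn and Lum at 0 in every library. The 5 endothelial markers stayed at or below 2.05 CPM, with Kdr and Tek at 0. The 5 leukocyte markers summed to 2.77 to 3.88 CPM in AmeloD and 0.876 to 1.69 CPM in Control, mostly Cd68, with Lyz2 at 0. The genotypes thus differed in depth and in these marker sums as well, and the part of either in the genotype differences below was not tested. In bulk RNA, fewer cells that express a gene and less RNA per cell cannot be told apart.

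Laminin-332 is a secreted heterotrimer that holds the α3 and β3 chains, laid down under epithelia as the ligand of 2 integrins. Integrin α6β4 binds it in the hemidesmosome, a rivet-like junction that ties keratin filaments to the basement membrane through plectin and the transmembrane collagen XVII, while α3β1 binds it at adhesions linked to actin. In the tooth, laminin-332 underlies the dental epithelium and is also a component of the atypical basal lamina that joins maturation-stage ameloblasts to the enamel, where ODAM is found as well. In humans, loss of laminin-332, α6β4 or collagen XVII causes junctional epidermolysis bullosa, often with defective enamel. Integrin αvβ6 is an epithelial receptor that frees TGF-beta from its latent complex, and its β6 subunit is required for normal enamel in mice and humans.

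The promoters of the 4 genes with the clearest differences are shown because they are the sequences beside which the TGF and genotype results stand. Each is the RefSeq window of 250 bases before to 50 after an annotated start in build GRCr8, on the gene's own strand. RefSeq gave such a window for 7 of the 9 genes; Itga6 and Itgb4 had none. In Lama3 and Lamb3, the capitals mark the motifs AP-1 (TGANTCA, read by Fos and Jun dimers) and CRE (TGACGTCA, read by CREB and ATF factors). In Itga3 and Col17a1 they mark E-boxes (CANNTG, the core read by basic helix-loop-helix factors, the class AmeloD belongs to). The Lama3 start used here lies inside the gene, downstream of its first annotated start.
Lama3 (chr18:3952517-3952816, plus strand): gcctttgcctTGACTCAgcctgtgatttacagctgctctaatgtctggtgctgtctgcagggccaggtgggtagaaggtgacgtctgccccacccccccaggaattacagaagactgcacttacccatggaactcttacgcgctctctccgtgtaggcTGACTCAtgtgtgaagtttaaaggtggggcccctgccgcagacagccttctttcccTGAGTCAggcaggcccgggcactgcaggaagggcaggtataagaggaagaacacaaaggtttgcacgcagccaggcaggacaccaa
Lamb3 (chr13:107362303-107362602, plus strand): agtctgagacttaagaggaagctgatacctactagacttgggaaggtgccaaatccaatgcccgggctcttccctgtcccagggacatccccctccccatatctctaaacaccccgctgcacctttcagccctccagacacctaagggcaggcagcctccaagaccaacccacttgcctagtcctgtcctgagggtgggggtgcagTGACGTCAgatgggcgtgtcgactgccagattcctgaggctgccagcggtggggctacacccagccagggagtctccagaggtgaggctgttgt
Itga3 (chr10:80518852-80519151, minus strand): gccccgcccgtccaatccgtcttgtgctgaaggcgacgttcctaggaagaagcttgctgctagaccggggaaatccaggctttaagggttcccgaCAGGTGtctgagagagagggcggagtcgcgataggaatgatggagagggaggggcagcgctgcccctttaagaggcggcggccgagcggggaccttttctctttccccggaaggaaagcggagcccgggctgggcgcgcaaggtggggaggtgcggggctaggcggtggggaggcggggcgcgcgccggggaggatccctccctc
Col17a1 (chr1:256518808-256519107, minus strand): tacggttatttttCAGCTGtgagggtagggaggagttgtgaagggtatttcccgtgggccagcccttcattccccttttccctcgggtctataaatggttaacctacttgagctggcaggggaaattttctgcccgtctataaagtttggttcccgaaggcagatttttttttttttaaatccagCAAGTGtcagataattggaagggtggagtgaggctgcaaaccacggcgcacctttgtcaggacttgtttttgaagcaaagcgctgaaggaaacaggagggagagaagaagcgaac

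Both strands of the 33469 promoter windows of the same table were searched for the same letters. The Lama3 window held 3 AP-1 matches, at -240 to -234, -92 to -86 and -36 to -30 counted from the start, and the second overlapped an E-box match. An AP-1 match occurred in 7.33% of all windows, and 5 windows (0.0149%) held 3 or more. The other 6 windows of these genes held no AP-1 match. The Lamb3 window held 1 CRE at -44 to -37, overlapped by an E-box, and a CRE occurred in 1.83% of all windows. The Itga3 window held 1 E-box and the Col17a1 window 2, a motif present in 72.1% of all windows, so its presence sets neither gene apart. Lama3, Lamb3 and Itgb6, none of them called for genotype, held 3, 2 and 1, and Itgb1 and Itgav held 0. The E-boxes of Lama3 and Lamb3 are not marked in the sequences above. The short Smad box (CAGACA, 1 or more in 21.1% of windows) was matched 1 time each in Lamb3, Itga3 and Itgb1. In Lama3 it was matched 3 times, and 150 of all windows (0.448%) held 3 or more. The Smad palindrome (GTCTAGAC, 0.197% of windows) was matched in none of the 7. These are matches of letters, with no measurement of binding.

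The TGF label went with higher transcripts of Lama3 and Lamb3 and, less firmly, of Itgb6 and Itgb1, whose calls were each lost in 6 of the 8 fits that left out 1 library. Of the 8 tested genes 4 rose and 0 fell with TGF, against 1.81% of all 6849 genes called in either direction (1.53% higher and 0.277% lower). Itgb6, 1 of the 4, was among the tested genes only because its TGF libraries reached 1 CPM, which its N libraries did not. The count of 4 thus holds a gene let in by the same contrast. The AmeloD genotype went with more Itga3 and, less firmly, less Col17a1, 2 of 8 called against a background of 13.8%. The Col17a1 call was lost in 3 of the 8 fits that left out 1 library. Of all genotype calls 65.6% were higher in AmeloD as deposited and 61.2% with the table reads as the total. The share was 49% to 53.6% under the other scalings of the libraries and the count tests. Of all TGF calls 84.7% were higher with TGF as deposited, and 68.9% to 75.2% under all of these other settings. None of the 8 was called for the plasmid by limma, edgeR or DESeq2. Lama3 and Lamb3, 2 of the 8, had an unadjusted limma p under 0.05, beside 454 of all 6849 genes. The summed mesenchyme markers were 19.9 to 63.0 CPM with TGF and 17.4 to 38.3 CPM with N, and the epithelial ones 500.2 to 816 CPM with TGF and 526 to 842 CPM with N; their part in the TGF differences was not tested. The median difference of the 8 genes on the log2(CPM + 1) scale was 0.30 for TGF, beside 0.036 over all tested genes, and 0.01 for genotype, beside 0.048. Differences below are from limma over all 8 libraries on that scale, which understates the change of genes at low CPM, with Benjamini-Hochberg adjustment over all tested genes and a threshold of 0.05.

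**Figure D1:**
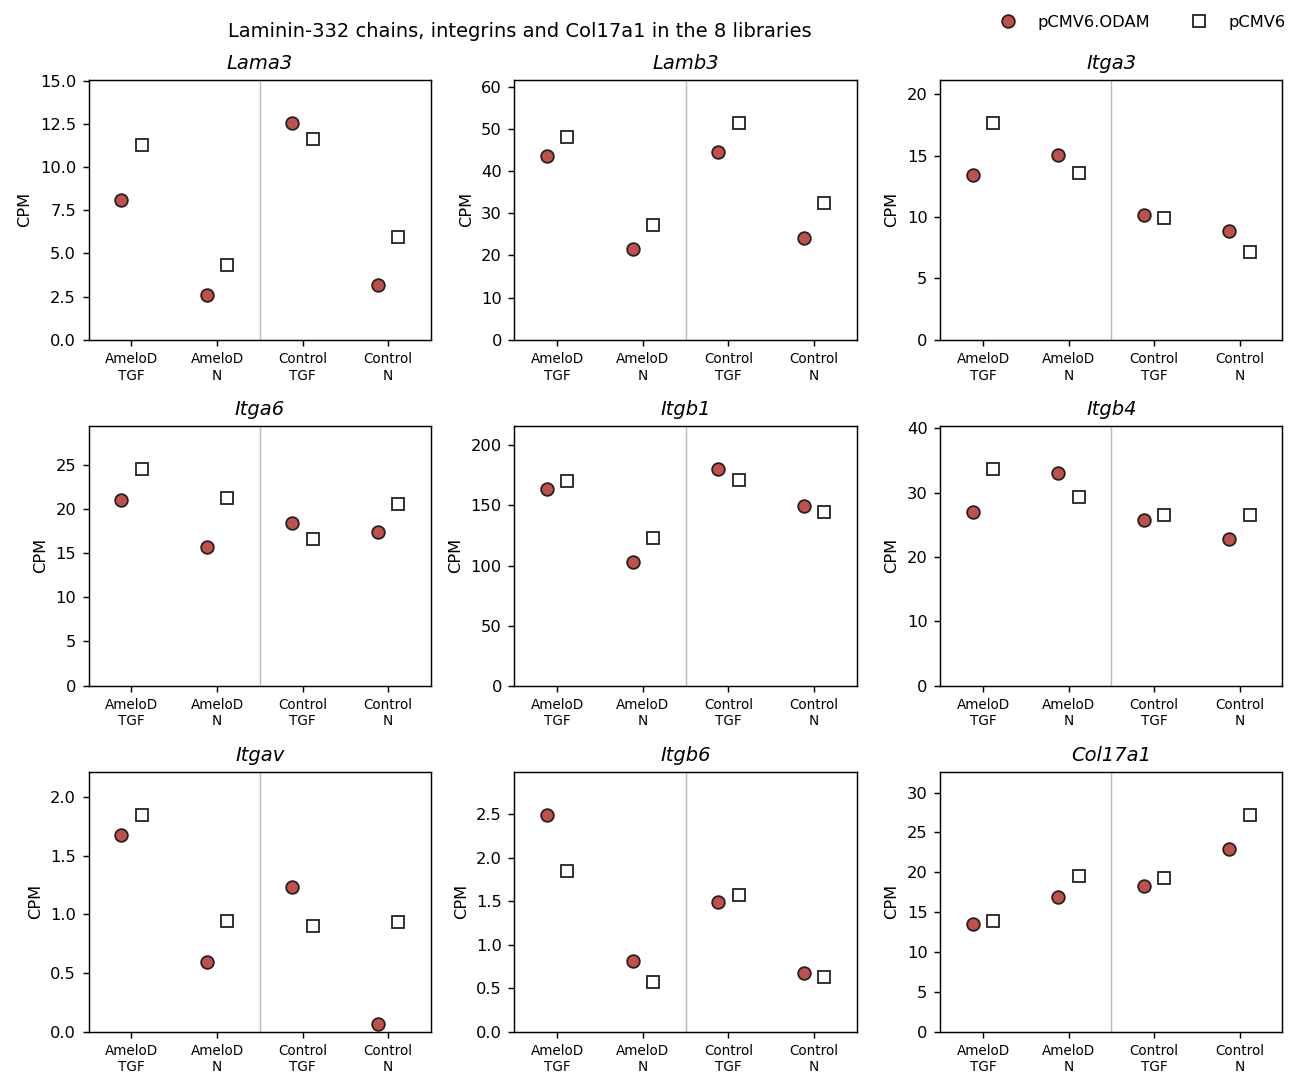
Each panel gives 1 gene, with CPM on the vertical axis from 0 and the 4 combinations of genotype and TGF label on the horizontal axis; each point is 1 library, filled circles pCMV6.ODAM and open squares pCMV6. In the Lama3, Lamb3, Itgb1 and Itgb6 panels every TGF point lies above every N point. In the Itga3 and Itgb4 panels every AmeloD point lies above every Control point. Groups of 4 did not overlap for 4.26% of all tested genes with the TGF label and for 15.0% with genotype.

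Values of the 4 TGF or 4 N libraries are given in the order AmeloD pCMV6.ODAM, AmeloD pCMV6, Control pCMV6.ODAM, Control pCMV6. Lama3 (ENSRNOG00000011300, chr18:3523133-3751353 in mRatBN7.2, plus strand) encodes the chain whose globular end binds the integrins. It had 8.12, 11.3, 12.5 and 11.6 CPM in the TGF libraries, against 2.60, 4.35, 3.18 and 5.95 CPM in the N libraries. All TGF values exceeded all N values, and the lowest TGF and highest N value were in different genotypes. The means were 10.9 ± 1.92 CPM with TGF and 4.02 ± 1.48 CPM with N (SD, n = 4 each, with genotype and plasmid inside the SD). The log2 difference was 1.27 ± 0.16 (SE; limma adjusted p = 1.43e-05), higher in 4 of 4 matched pairs. The pair ratios of CPM were 3.13 and 2.59 in AmeloD with pCMV6.ODAM and pCMV6, and 3.94 and 1.96 in Control with those plasmids. The 95% exact interval of the highest, 2.85 to 5.54, did not overlap that of the lowest, 1.53 to 2.52; these intervals cover counting error only.

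Lamb3 (ENSRNOG00000006025, chr13:104833873-104875405, plus strand) encodes the β3 chain, found in laminin-332 alone among the common laminins. It had 43.5, 48.2, 44.5 and 51.4 CPM in the TGF libraries, against 21.5, 27.2, 24.1 and 32.4 CPM in the N libraries. The groups did not overlap, which was true of 4.26% of all tested genes for the TGF label. In both the TGF and the N group, the pCMV6 library had more Lamb3 than the pCMV6.ODAM library of its genotype. The log2 difference between TGF and N was 0.83 ± 0.11 (SE; limma adjusted p = 3.55e-05), and the 4 pair ratios lay between 1.59 and 2.02. The Lama3 to Lamb3 ratio of CPM within a library was 0.187 to 0.282 with TGF and 0.121 to 0.184 with N, higher with TGF in 4 of 4 pairs. Since 3' counts of different genes depend on where their transcripts end, these ratios compare libraries and not amounts of the chains.

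The rise of Lama3 and Lamb3 was read in both genotypes. In the model with a genotype by TGF term, which called 0.847% of all genes for TGF within AmeloD and 0.453% within Control, Lama3 rose by 1.27 on the log2 scale in AmeloD (limma adjusted p = 0.00157) and by 1.28 in Control (limma adjusted p = 0.00238). Lamb3 rose by 0.90 in AmeloD and 0.76 in Control (limma adjusted p = 0.00195 and 0.0229). The differences between the genotypes in the TGF response were -0.01 ± 0.33 for Lama3 and 0.14 ± 0.24 for Lamb3 (SE; limma adjusted p = 0.999 for each), too wide to show that the responses were alike. Neither Lama3 nor Lamb3 was called for genotype: the differences of AmeloD minus Control were -0.30 ± 0.16 and -0.13 ± 0.11 (SE; limma adjusted p = 0.233 and 0.490), lower in AmeloD in 4 of 4 pairs for both.

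**Figure D2:**
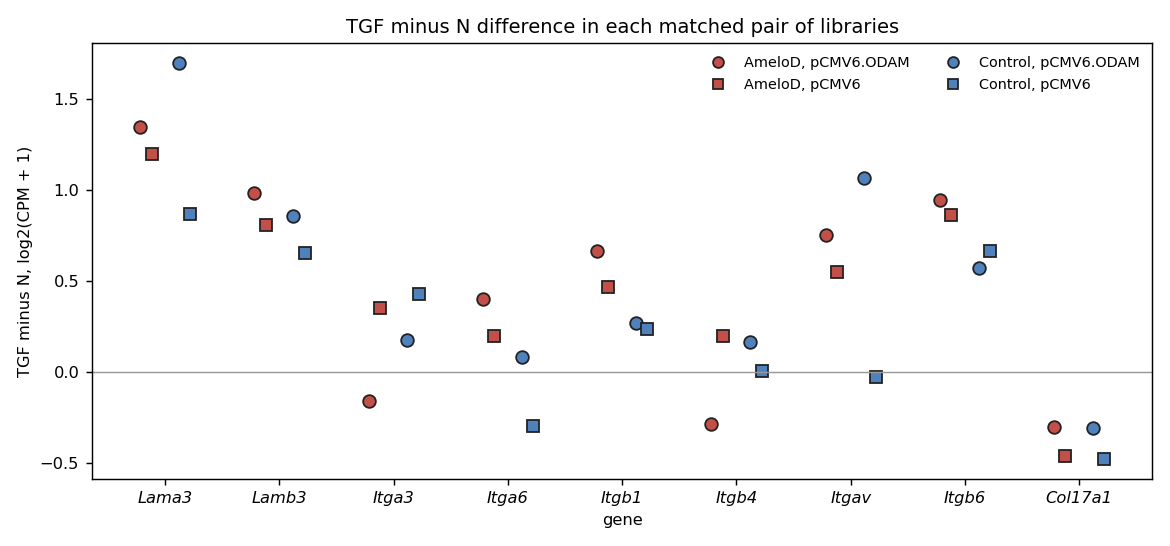
Each point is the TGF minus N difference of log2(CPM + 1) in 1 matched pair of libraries, by gene. Lama3 runs from 0.86 to 1.69, Lamb3 from 0.65 to 0.98 and Itgb6 from 0.57 to 0.94, and the 4 Col17a1 points lie between -0.48 and -0.30.

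Among the receptor subunits, Itga3 differed with genotype. Itga3 (ENSRNOG00000004276, chr10:79990161-80022118, minus strand) encodes α3, the partner of β1 in the actin-linked laminin receptor. With values of each genotype in the order pCMV6.ODAM TGF, pCMV6 TGF, pCMV6.ODAM N, pCMV6 N, it had 13.4, 17.6, 15.1 and 13.6 CPM in AmeloD, against 10.1, 9.96, 8.87 and 7.13 CPM in Control. The lowest AmeloD library was above the highest Control library; groups of 4 did not overlap for 15.0% of all tested genes in this contrast. The log2 difference was 0.67 ± 0.14 (SE; limma adjusted p = 0.00184), with pair ratios of 1.32 to 1.91, and it was called under each of the 17 alternative settings tried. Within the N libraries, where 6.63% of all genes were called, Itga3 rose by 0.77 on the log2 scale in AmeloD (limma adjusted p = 0.0190). Within the TGF libraries, where 5.11% were called, the difference was 0.57 (limma adjusted p = 0.123). The test of that difference gave -0.21 ± 0.30 (SE; limma adjusted p = 0.999). For the TGF label itself the Itga3 difference was 0.20 ± 0.14 (SE; limma adjusted p = 0.644).

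Itga6 (ENSRNOG00000001518, chr3:56617268-56689428, plus strand) encodes α6, the partner of β4 in hemidesmosomes. It had 21.0, 24.5, 15.6 and 21.2 CPM in AmeloD and 18.4, 16.5, 17.3 and 20.5 CPM in Control in the same order, and the groups overlapped. No difference was called: 0.16 ± 0.13 for genotype, 0.10 ± 0.13 for TGF and -0.18 ± 0.13 for the plasmid (SE; limma adjusted p = 0.495, 0.860 and 0.839). Itgb4 (ENSRNOG00000005580, chr10:101206665-101243012, plus strand) encodes β4, whose long cytoplasmic tail binds plectin. It had 26.9, 33.6, 33.0 and 29.2 CPM in AmeloD, against 25.7, 26.6, 22.8 and 26.5 CPM in Control. The groups did not overlap and AmeloD was higher in 4 of 4 pairs, but the difference of 0.26 ± 0.12 missed the threshold (SE; limma adjusted p = 0.154). The TGF difference of Itgb4 was 0.02 ± 0.12 (SE; limma adjusted p = 0.976), and its sign turned under 5 of the other scalings and tests.

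Itgb1 (ENSRNOG00000010966, chr19:56705171-56753195, plus strand) encodes β1, which pairs with α3 and with most other laminin- and collagen-binding α subunits. In the order used for TGF above, it had 164, 170, 180 and 171 CPM in the TGF libraries, against 103, 123, 149 and 145 CPM in the N libraries. The groups did not overlap, and the N libraries of AmeloD stood lowest. The log2 difference was 0.41 ± 0.10 (SE; limma adjusted p = 0.0209), with pair ratios of 1.59 and 1.38 in AmeloD and 1.21 and 1.18 in Control, for pCMV6.ODAM and pCMV6. This call was lost in 12 of 17 alternatives, among them each other scaling and both count tests, with adjusted p of 0.0535 (DESeq2) to 0.104 (edgeR) in those. Within AmeloD Itgb1 rose by 0.56 with TGF (limma adjusted p = 0.0404), and within Control the difference was 0.25 (limma adjusted p = 0.888). The difference between these responses was 0.31 ± 0.20 and was not called (SE; limma adjusted p = 0.999). For genotype, Itgb1 differed by -0.23 ± 0.10 (SE; limma adjusted p = 0.123), lower in AmeloD in 4 of 4 pairs, and it passed the threshold with TMM scaling, with equal medians and with DESeq2 (adjusted p = 0.0474, 0.0410 and 0.0445). The Itga3 to Itgb1 ratio of CPM within a library was 0.0817 to 0.146 in AmeloD and 0.0493 to 0.0595 in Control.

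Itgb6 (ENSRNOG00000008346, chr3:45048044-45121671, minus strand) encodes β6, the epithelial subunit that gives αvβ6 its specificity. It had 2.49, 1.85, 1.49 and 1.58 CPM in the TGF libraries, against 0.816, 0.568, 0.677 and 0.626 CPM in the N libraries. The groups did not overlap, on counts of 20 to 34 reads per library with TGF and 6 to 11 reads with N. Over all libraries 105 reads with TGF stood against 37 with N, a ratio scaled to depth of 2.70 with an exact 95% interval of 1.84 to 4.04. That interval covers counting error only and leaves out the spread between libraries. The log2 difference was 0.76 ± 0.18 (SE; limma adjusted p = 0.0234), higher in 4 of 4 pairs. Itgb6 reached 1 CPM in the TGF libraries alone, so it entered the tested genes only through the group where it was high. Its TGF test is therefore not independent of the filter. The call was lost in 7 of 15 alternatives, which were the fit without a filter on low genes and 6 of the 8 fits that left out 1 library (adjusted p up to 0.148). For genotype the Itgb6 difference was 0.17 ± 0.18 (SE; limma adjusted p = 0.602).

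Itgav (ENSRNOG00000004912, chr3:68838189-68926639, plus strand) encodes αv, the partner of β6 and of β1, β3, β5 and β8. It had 1.68, 1.85, 1.23 and 0.900 CPM in the TGF libraries and 0.593, 0.946, 0.0677 and 0.939 CPM in the N libraries. The groups overlapped, because Control pCMV6 had less with TGF than with N. The value of 0.0677 CPM is a single read. In the fit without the filter on low genes the TGF difference was 0.58 ± 0.22 (SE; limma adjusted p = 0.445) and the genotype difference was 0.36 ± 0.22 (SE; limma adjusted p = 0.469). Over all libraries 78 reads with TGF stood against 34 with N, a ratio scaled to depth of 2.18 with an exact 95% interval of 1.44 to 3.36 that covers counting error only. For genotype, 61 reads in AmeloD stood against 51 in Control, a ratio of 1.57 (1.07 to 2.33). At 1 to 23 reads per library, neither difference passed the test across libraries.

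Col17a1 (ENSRNOG00000012110, chr1:246531367-246577632, minus strand) encodes the transmembrane collagen of the hemidesmosome, which binds α6, β4 and plectin. In the order used for genotype, it had 13.5, 13.9, 16.9 and 19.5 CPM in AmeloD, against 18.3, 19.2, 23.0 and 27.2 CPM in Control. The groups overlapped, since AmeloD pCMV6 N lay above both TGF libraries of Control, yet each AmeloD library was below its Control partner. The pair ratios lay between 0.718 and 0.739. Col17a1 fell by 0.43 on the log2 scale in AmeloD (SE 0.12; limma adjusted p = 0.0172). The call was lost without AmeloD pCMV6.ODAM N, without AmeloD pCMV6 TGF or without Control pCMV6 N (adjusted p = 0.0576, 0.0610 and 0.0680). With TGF, Col17a1 had pair ratios of 0.708 to 0.800, lower in 4 of 4 pairs, with a difference of -0.39 ± 0.12 that missed the threshold (SE; limma adjusted p = 0.125); it passed with TMM scaling (adjusted p = 0.0447) and DESeq2 (adjusted p = 0.0350). The lowest library was AmeloD pCMV6.ODAM TGF with 13.5 CPM and the highest Control pCMV6 N with 27.2 CPM, and the genotype by TGF term was 0.01 ± 0.27 (SE; limma adjusted p = 0.999). The Itgb4 to Col17a1 ratio within a library was 1.5 to 2.43 in AmeloD and 0.975 to 1.40 in Control.

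**Figure D3:**
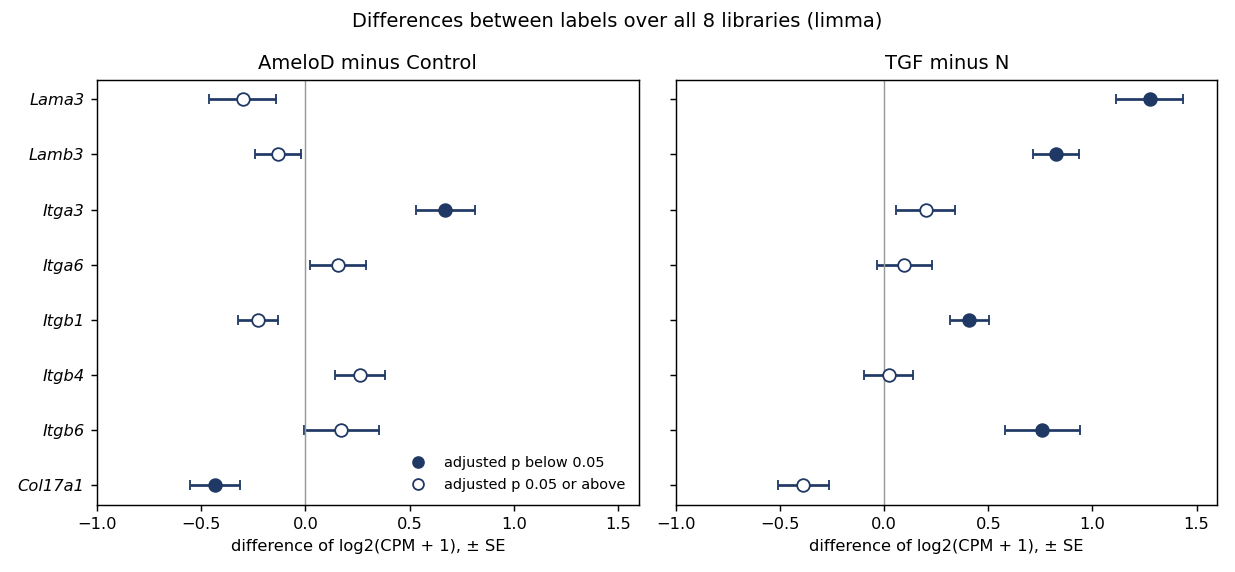
Points are limma differences of log2(CPM + 1) over all 8 libraries with SE bars, AmeloD minus Control in the left panel and TGF minus N in the right panel, with filled points for genes past the adjusted threshold. Lama3 at 1.27 and Lamb3 at 0.83 lie farthest right for TGF, and Itga3 at 0.67 and Col17a1 at -0.43 are the filled points for genotype.

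The plasmid pCMV6.ODAM was set against pCMV6 over 4 matched pairs. Of all 6849 genes 0 (0.0%) were called by limma, with 454 at an unadjusted p under 0.05, and DESeq2 called 1. Lama3 had the largest plasmid difference of the 8 tested genes, with 8.12, 2.60, 12.5 and 3.18 CPM in pCMV6.ODAM and 11.3, 4.35, 11.6 and 5.95 CPM in pCMV6 for AmeloD TGF, AmeloD N, Control TGF and Control N. The difference was -0.41 ± 0.16 (SE; limma adjusted p = 0.710), lower with pCMV6.ODAM in 3 of 4 pairs. Lamb3 was lower with pCMV6.ODAM in 4 of 4 pairs, with a difference of -0.27 ± 0.11 (SE; limma adjusted p = 0.710). The other 6 lay between -0.18 and 0.13. None of the 8 was called in the terms for genotype by TGF, genotype by plasmid or plasmid by TGF, in which limma called 1 (0.0146%), 0 and 0 of all genes, with 282, 308 and 504 at an unadjusted p under 0.05, and edgeR and DESeq2 called 0 in each.

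The rest of the adhesion machinery was read from lists of related genes in the same fits. Lama5, the α chain of the laminins of most adult epithelia, had a TGF difference of -0.50 ± 0.18 (SE; limma adjusted p = 0.198), lower in 4 of 4 pairs and opposite in sign to that of Lama3. Lamb1, Lamb2 and Lamc1 had TGF differences of 0.09, 0.50 and 0.45, none called. Lama1, Lama2, Lama4 and Lamc3 had 1 to 5 reads over all libraries. Of 20 other integrin subunits only Itgb5 and Itga2 were tested, and limma, edgeR and DESeq2 called 0. For TGF 1 of them had an unadjusted limma p under 0.05, beside 816 of all 6849 genes. Itgb5, another partner of αv, had 3.58, 3.14, 2.92 and 2.14 CPM in the TGF libraries, against 1.93, 1.42, 1.90 and 1.13 CPM in the N libraries, a difference of 0.61 ± 0.18 (SE; limma adjusted p = 0.0911).

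All 4 other hemidesmosome and anchoring fibril genes were tested. Plec, which encodes plectin, the linker to keratin filaments, and Cd151, a tetraspanin bound to laminin receptors, were called lower in AmeloD, 2 of 4 beside 4.75% of all tested genes, with a median genotype difference of -0.38 over the 4 beside 0.048 over all. Plec had 4.61, 9.70, 5.49 and 7.0 CPM in AmeloD and 11.96, 7.93, 11.0 and 9.70 CPM in Control, and was not lower in the pCMV6 TGF pair. Its difference was -0.56 ± 0.18 (SE; limma adjusted p = 0.0379), and the call was lost in 7 of 17 alternatives, 6 of them with 1 library left out. Cd151 had 6.51, 4.71, 4.08 and 3.12 CPM in AmeloD and 7.93, 7.31, 5.08 and 6.70 CPM in Control, a difference of -0.49 ± 0.16 (SE; limma adjusted p = 0.0484) that was lost in 8 of 17. The other 2, Dst and Col7a1, were not called in either contrast.

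Of 7 other laminin receptors, all tested, Bcam was the 1 called, for genotype and for TGF, beside 13.8% and 1.81% of all tested genes. Bcam encodes the basal cell adhesion molecule, a receptor for laminin α5, and had 4.46, 5.54, 10.8 and 7.95 CPM in AmeloD and 2.73, 2.03, 3.59 and 5.32 CPM in Control. It was higher in AmeloD by 0.88 ± 0.17 (SE; limma adjusted p = 0.000913), in 4 of 4 pairs and under each of 17 alternatives. With TGF it fell, by 0.73 (SE 0.17; limma adjusted p = 0.0238), in 4 of 4 pairs, a call lost in 5 of 17 alternatives, 4 of which left out 1 library (adjusted p up to 0.202). Bcam thus moved with TGF in the direction opposite to Lama3 and Lamb3.

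Of 22 integrin adaptors and focal adhesion genes 17 were tested, with a median TGF difference of 0.24 beside 0.036 over all tested genes. With TGF 1 rose and 0 fell, beside 1.53% and 0.277% of all tested genes. It was Fermt1, which encodes kindlin-1, an activator of epithelial integrins, with 17.5, 21.8, 22.3 and 20.0 CPM in the TGF libraries, against 6.82, 7.38, 10.7 and 8.64 CPM in the N libraries. The groups did not overlap, and the difference was 1.20 ± 0.14 (SE; limma adjusted p = 4.33e-06). With genotype 2 rose and 1 fell, beside 9.07% and 4.75% of all tested genes. Actn4, an actin crosslinker, averaged 99.7 ± 7.42 CPM in AmeloD and 69.8 ± 11.7 CPM in Control (SD, n = 4 each; difference 0.52 ± 0.11, limma adjusted p = 0.00173). Fermt2, which encodes kindlin-2, averaged 15.1 ± 2.98 CPM in AmeloD and 8.93 ± 1.71 CPM in Control (SD, n = 4 each; difference 0.70 ± 0.16, limma adjusted p = 0.00309). Src, which encodes a kinase that acts at focal adhesions, was lower in AmeloD by 0.50 (SE 0.16; limma adjusted p = 0.0428). This call was lost in 9 of 17 alternatives, among them each fit that left out 1 library.

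**Figure D4:**
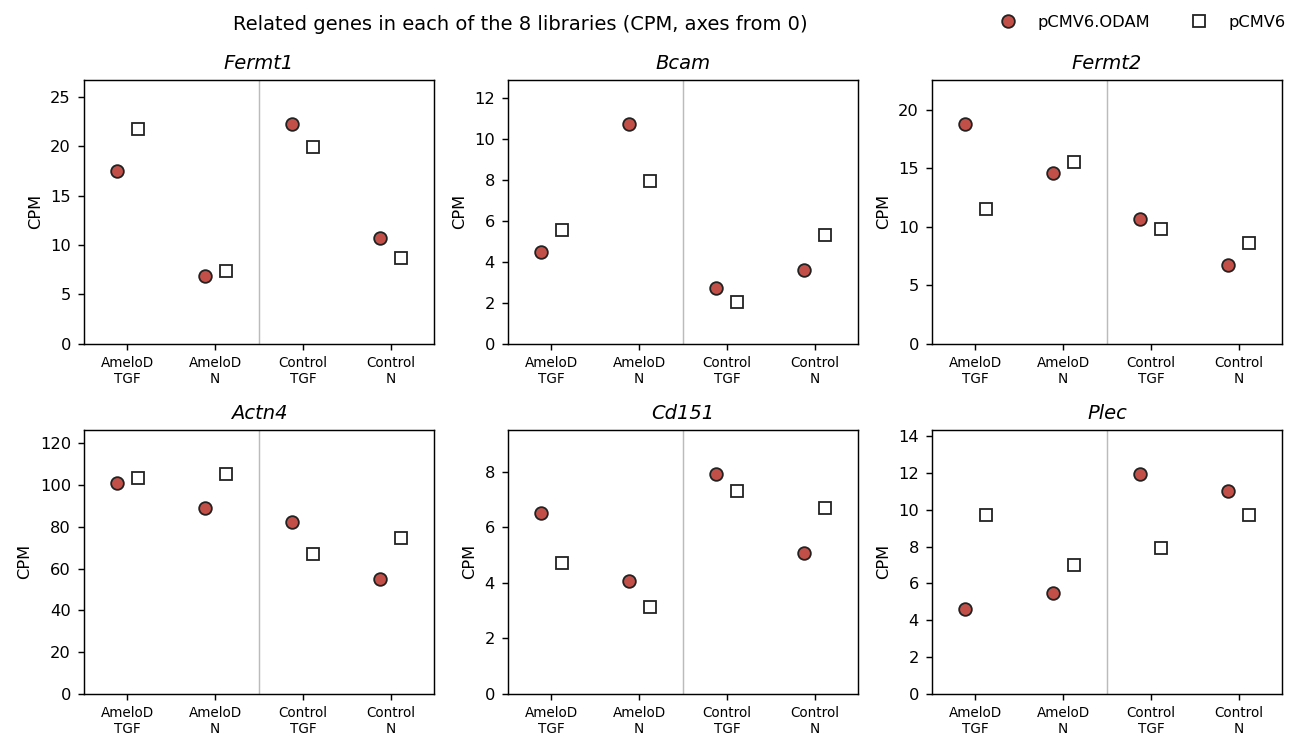
Panels and symbols are as in the plot of the 9 genes, for Fermt1, Bcam, Fermt2, Actn4, Cd151 and Plec, with CPM from 0 and 1 point per library. The TGF points of Fermt1 lie above all its N points, and the AmeloD points of Fermt2 and Actn4 lie above all their Control points.

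Of 17 other basement membrane components 4 were tested, and limma, edgeR and DESeq2 called 0. Of the 4, 1 had an unadjusted limma p under 0.05 for genotype and 1 for TGF, beside 1849 and 816 of all 6849 genes. The most abundant, Agrn, which encodes agrin, had 3.12 to 7.48 CPM over the 8 libraries, and Col4a1, Col4a2, Frem1 and Frem2 had 0 reads. Of 17 genes of latent TGF-beta and its activation 4 were tested, and the same tools called 0. For TGF 2 of the 4 had an unadjusted limma p under 0.05, beside 816 of all 6849 genes. Tgfbr2, the type II receptor and the most abundant of them, had a TGF difference of 0.25 ± 0.14 (SE; limma adjusted p = 0.513). Of 16 proteases of laminin-332 and the pericellular matrix 5 were tested. With TGF limma called 1 of them higher, beside 1.53% of all tested genes, and edgeR and DESeq2 called 0. Bmp1, a procollagen protease, was called higher with TGF, by 0.80 ± 0.20 (SE; limma adjusted p = 0.0370). Its groups overlapped at 2.08 to 3.80 CPM with TGF and 0.662 to 2.10 CPM with N, and the call was lost in 12 of 16 alternatives.

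The genes followed each other to different degrees over the 8 libraries, which share the genotype and TGF labels, so the coefficients below describe these libraries only. Lama3 and Lamb3 had a Pearson r of 0.980 on log2(CPM + 1). Itga3 had 0.812 with Itgb4, 0.325 with Itga6 and -0.225 with Itgb1, and -0.863 with Col17a1. Among 1497 genes with a mean of 10 CPM or more, the closest to Lamb3 were Cald1 (0.953) and Fam76b (0.939), and to Itga3 were Llgl2 (0.946) and Ubl7 (0.938). Those closest to Itgb1 were Fn1, which encodes fibronectin (0.979), and Lrrfip2 (0.959). Col17a1 was closest to Pgk1 (0.957) and Ncl (0.940), and Itgb4 to Mtch1 (0.970) and Tomm7 (0.961). These likenesses say nothing of shared control.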

How the data were processed

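The authors deposited 1 table of CPM per gene for 8 libraries. Per the labels' protocols, RNA was made into QIAseq UPX 3' libraries, aligned to mRatBN7.2 with STAR and counted with featureCounts (2.7.10a and 2.0.1 per the submitters' processing notes). The sources used here do not give the handling of molecular identifiers, strand or multi-mapped reads. All values (100%) were whole reads within 0.01, which gave the library totals and the read counts for edgeR and DESeq2. The main test was limma 3.58.1 (R 4.3.3) on log2(CPM + 1), eBayes with trend, with genotype, plasmid and TGF as additive terms (4 residual degrees of freedom; 3 with an interaction), two-sided, on 6849 genes. The alternatives were pseudocount 0.5, 2 filters, 3 scalings, edgeR 4.0.16, DESeq2 1.42.0, a matched-pair block and each library left out. The members and lists were chosen with earlier results of these data known. Named beside the 9 genes were up to 4 genes per list past the genotype threshold and 2 past that of TGF, or else the 1 of highest mean, and the 2 genes of most similar pattern; Itgb5, Agrn and Tgfbr2 are those of highest mean. Other genes were named after their values were seen: those with few or 0 reads, Itga2, Dst, Col7a1, Lama5, Lamb1, Lamb2 and Lamc1. Some results are not reported here. Sequences are from RefSeq (GRCr8). The limma step was tested on simulated counts with a fixed spread, which does not give its error in these libraries.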

Additional observations from a re-analysis of the deposited data

Results flagged for a closer look

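Itgb4 in AmeloD pCMV6 TGF stood apart from the other TGF libraries. It had 33.6 CPM there, against 25.7 to 26.9 CPM in the other 3, so that its gap to the nearest was 0.849 of the whole range of the 4. Chance flags about 1 in 20 such groups, and 1 of the 36 groups examined was flagged.

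The plasmid difference of Itgb1 had opposite signs in the genotypes. On the log2(CPM + 1) scale, pCMV6.ODAM minus pCMV6 averaged -0.154 over the 2 pairs of AmeloD and 0.0597 over the 2 pairs of Control, with both pairs of each genotype on the same side. It was flagged on those signs alone; the genotype by plasmid term was -0.21 ± 0.19 and was not called (SE; limma adjusted p = 0.999).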

How the results depend on the processing

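The TGF rises of Lama3 and Lamb3 and the genotype rise of Itga3 kept their direction and their call under each of 17 alternatives, with log2 differences of 1.147 to 1.42, 0.77 to 0.88 and 0.58 to 0.79. Without the filter on low genes, TGF calls numbered 67 of all genes and 2 of the 8, and the calls of Itgb1 and Itgb6 were lost. Leaving out each library in turn gave 71 to 104 TGF calls (71 without AmeloD pCMV6.ODAM N and 76 without Control pCMV6.ODAM N) and 2 to 3 among the 8 (2 without any 1 of the AmeloD libraries), 642 to 924 genotype calls and 1 to 2 among the 8, 0 to 2 plasmid calls, and 0 to 7, 0 to 2 and 0 to 3 calls for the genotype by TGF, genotype by plasmid and plasmid by TGF terms. DESeq2 called 1 gene for the plasmid; the genotype by TGF term had 0 calls with pseudocount 0.5, without the filter, with 1 CPM in all 8 libraries, with table reads as the total, and with edgeR and DESeq2. Near-zero differences turned sign: TGF for Itgb4 to -0.052, -0.035, -0.026, -0.0392 and -0.0393, plasmid for Itga3 to -0.031, -0.0198, -0.0106, -0.0277 and -0.0211 (table total, TMM, equal medians, edgeR, DESeq2), and genotype by TGF for Lama3 to 0.0089, 0.0407, 0.0093, 0.0566 and 0.0392 (pseudocount, table total, equal medians, edgeR, DESeq2). With 1 library left out, signs also turned within -0.0135 to 0.228 (TGF, Itga6), -0.0300 to 0.103 (TGF, Itgb4), -0.0758 to 0.139 (plasmid, Itga3) and -0.117 to 0.0432 (plasmid, Itgb1), and for genotype by TGF within -0.348 to 0.329 (Lama3), -0.466 to 0.0541 (Itga3), -0.307 to 0.0484 (Itgb4) and -0.0571 to 0.0786 (Col17a1). The cause was not tested. Of the genotype calls, the share higher in AmeloD was 65.6% as deposited and 61.2% with the table total. It was 52.5% with TMM, 49% with equal medians, 53.6% with edgeR and 53.3% with DESeq2. Of the TGF calls, the share higher with TGF was 84.7% as deposited and 68.9% to 75.2% under those other settings. The median plasmid by TGF difference over all genes was 0.158 as deposited and near 0 with TMM. The matched-pair block left 1035, 125 and 0 calls for genotype, TGF and plasmid and changed no call among the 8. DESeq2 gave no adjusted p for the TGF difference of Itgb6. No paired analysis by replicate number was possible because the labels give no replicate numbers. On the recovered reads edgeR called 960 genes for genotype and 105 for TGF, beside 946 and 124 by limma. Depth limits Itgav and Itgb6, at 1 to 34 reads per library.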
